A study of Sus scrofa with 5 samples.

Results

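The respiratory chain genes of the nucleus were followed through healing skin grafts of the pig. Members were the genes whose symbol carried one of the standard subunit names, that is NDUFA, NDUFB, NDUFC, NDUFS or NDUFV with a number, COX4 to COX8, UQCR, SDHA to SDHD, or ATP5. The rule found 64 of 20286 genes. Of these, 30 carried names of complex I, 3 of complex II, 5 of complex III, 13 of complex IV and 13 of complex V. NDUFA4L2 and COX4I2, which are restricted to few cell types, were set apart, which left 62 members for the sums and medians. SDHA, NDUFA4, NDUFB1 and UQCR11 had a symbol only in a separate gene table, so they are not members and are named only where a result turns on them. COX6B1, COX8B and COX8C were not analysed here. All 64 members had UMIs (unique molecular identifiers, each standing for a captured RNA molecule) in at least 1 library, and 60 reached 50 UMIs per 1000000 (CPM) in at least 1 library.

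Pigs with full-thickness wounds received split-thickness skin grafts, and single cells were measured in 5 libraries, 1 per group. These were the graft under a hydrogel with an inhibitor of focal adhesion kinase (FAK) at day 7, the untreated graft at day 7, the FAK inhibitor graft at day 90, the untreated graft at day 90, and unwounded skin with no graft and no treatment. The labels used here state no breed, sex, age or number of animals per library, although the series describes several pigs. With 1 library per group no value has a replicate, so no difference could be tested, and all intervals below are 95% intervals that cover counting error only.

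Oxidative phosphorylation in mitochondria rests on 5 protein complexes. Complex I takes electrons from NADH and complex II from succinate. Complex III passes them to cytochrome c, and complex IV hands them to oxygen. Complex V, the ATP synthase, uses the proton gradient that complexes I, III and IV build. Most subunits are encoded in the nucleus, while 13 core subunits are encoded in mitochondrial DNA, and complex II has none of those. Several complex IV subunits exist as isoforms that differ between tissues. COX4I2 is best known from lung, COX6A2 and COX7A1 from heart and skeletal muscle, and COX6B2 from testis. NDUFA4L2, named after complex I, is induced by hypoxia in human and mouse cells. Its relative NDUFA4 is now counted with complex IV.

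The deposited matrices held 1883 to 10962 barcodes and 18485301 to 79671374 UMIs per library. After filtering, 26842 of 32554 cells were kept, between 1542 in unwounded skin and 8653 in the FAK inhibitor graft at day 7, with median UMIs per cell between 5495 and 9602. Clusters were assigned to 12 cell classes by RNA markers, and keratinocyte-like cells, which mark skin, were present in all 5 libraries with 29 to 471 cells. Libraries shared barcodes. Unwounded skin had 152 barcodes, 8.07% of its own, in common with the FAK inhibitor graft at day 90 and 133, or 7.06%, with the untreated graft at day 90. In these pairs the barcode held a median of 90.4 and 75.9 times as many UMIs in one library as in the other, and 47 of 51 and 32 of 35 barcodes kept in both libraries fell in the same cell class. The main counts and medians, and some isoform shares, that rest on unwounded skin are therefore also given without shared barcodes. Other values are given with them. The sum of the 62 members in unwounded skin was 9071 CPM without them and 9354 CPM with them. The 2 day 7 libraries shared 32 barcodes, of which 1 of 16 kept in both fell in the same class. The 2 day 90 libraries shared 70, of which 21 of 27 kept in both fell in the same class. Of those 70, 9 differed more than 20-fold in UMIs, and the median was 1.05-fold.

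The 62 members together made up 14776 CPM of the FAK inhibitor graft at day 7, 13506 CPM of the untreated graft at day 7, 9457 CPM of the FAK inhibitor graft at day 90, 9984 CPM of the untreated graft at day 90 and 9354 CPM of unwounded skin. These 62 members thus took 1.48% and 1.35% of all UMIs in the FAK inhibitor and untreated graft at day 7, and 0.935% to 0.998% in the other 3 libraries. Subunits encoded in mitochondrial DNA are not part of these shares. Both day 7 libraries lay above the rest. In these sums over all cells, more cells of a type and more RNA per cell cannot be told apart.

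**Figure D1:**
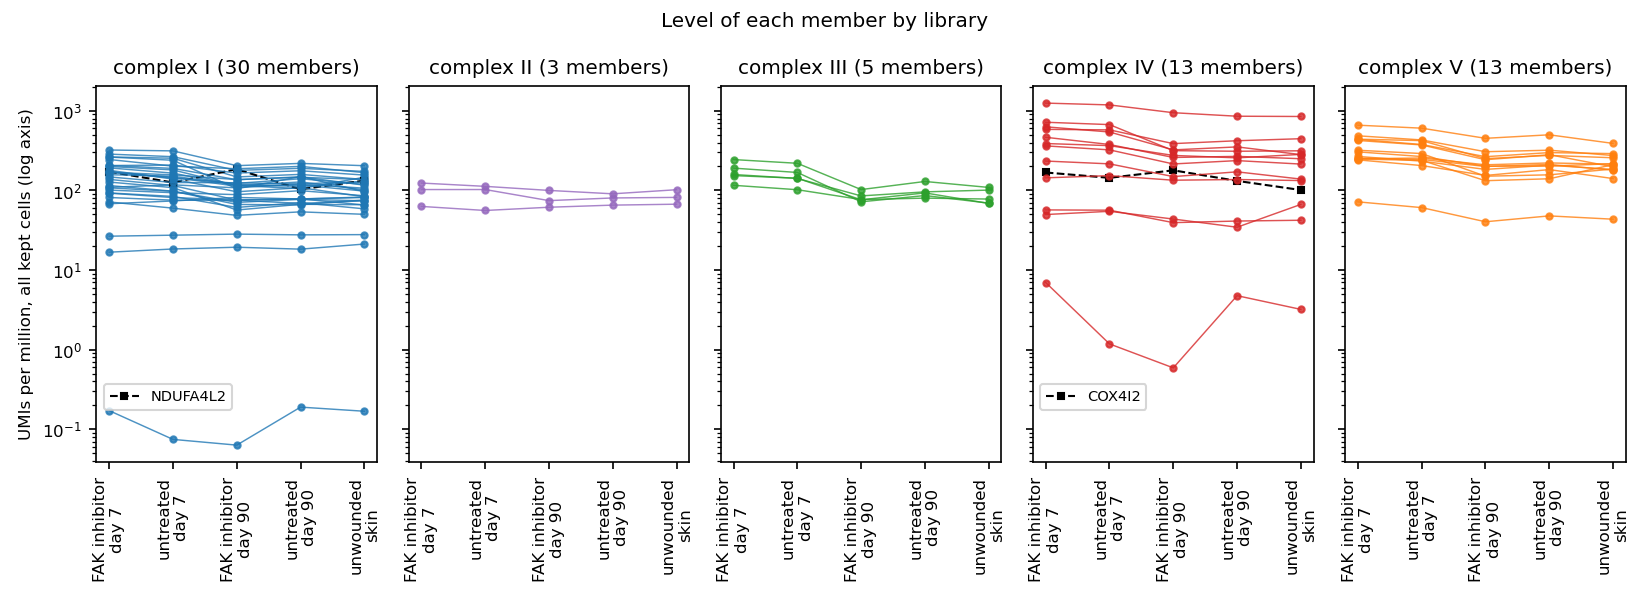
UMIs per 1000000 (CPM, log axis) of each member over all cells, by library, with 1 panel per complex. Lines join the values of 1 gene, and the dashed black lines are NDUFA4L2 and COX4I2. Most lines stand higher in both day 7 grafts than in the day 90 grafts and unwounded skin, with UQCRQ at 191 CPM in the FAK inhibitor graft at day 7 and 69.4 CPM in unwounded skin.

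Complex IV had the largest sum in 4 of the 5 libraries, and complex I, at 3125 CPM, had it in the untreated graft at day 90. It held 4890 CPM in the FAK inhibitor graft and 4523 CPM in the untreated graft at day 7, 3091 and 3090 CPM in the FAK inhibitor and untreated graft at day 90, and 3024 CPM in unwounded skin. Complexes I and V followed, with 4326 and 4406 CPM in the FAK inhibitor graft at day 7 and 2867 and 2784 CPM in unwounded skin. Complex III had 863 CPM in the FAK inhibitor graft at day 7 and 774 CPM in the untreated graft at day 7, against 426 CPM in unwounded skin. Complex II, with 3 members, was the lowest at 290 CPM in the FAK inhibitor graft at day 7 and 251 CPM in unwounded skin. UMIs count molecules by an end of the transcript, so these levels need no correction for gene length.

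Single members spanned several orders of magnitude. In unwounded skin the highest of each complex were NDUFB4 at 205 CPM (an accessory subunit of complex I), SDHB at 102 CPM (the iron-sulphur subunit of complex II), UQCR10 at 109 CPM (a small subunit of complex III), COX4I1 at 849 CPM (the common isoform of subunit 4 of complex IV) and ATP5PF at 389.8 CPM (a stalk subunit of complex V). The lowest were NDUFS8 at 0.169 CPM, SDHC at 67.2 CPM, UQCRFS1 at 68.7 CPM, COX6B2 at 3.21 CPM and ATP5F1D at 43.6 CPM. NDUFS8, a core subunit of complex I, stayed between 0.0635 and 0.190 CPM in all 5 libraries, far under every other complex I member. Whether the gene model used for counting covers the transcript end that UMIs read was not tested, so these counts need not stand for a low RNA level.

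The comparison of grafts with unwounded skin asks how the chain stood in healing tissue. A member counted as higher or lower at a ratio of 1.5-fold or beyond, provided that it had at least 50 CPM in either library, which is a rule of size with no test behind it. In the FAK inhibitor graft at day 7, 29 of 58 members were higher than in unwounded skin and 0 were lower, where 25.6% of all genes at that level were higher and 24.2% lower. The median log2 ratio of the members was 0.58, beside 0.05 over all genes. In the untreated graft at day 7, 21 of 58 members were higher than in unwounded skin and 0 were lower, against 21.3% and 19.3% of all genes, with medians of 0.43 and 0.07. Without shared barcodes the medians were 0.63 for the FAK inhibitor graft and 0.52 for the untreated graft. Then 32 and 22 members were higher, where 819 of 3134 and 661 of 3115 genes were. Both comparisons share the 1 library of unwounded skin.

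Normalization by another scale factor moved these medians. Centring used the median over all genes with at least 50 CPM in both libraries compared. It shifted the FAK inhibitor graft at day 7 over unwounded skin by 0.14 on the log2 scale. Day 90 over day 7 was shifted by -0.14 in FAK inhibitor grafts and by -0.15 in untreated grafts. Relative to that shift the member medians were 0.44, -0.47 and -0.22.

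Complex III, the cytochrome c reductase, had the largest median of the 5 complexes in this comparison, at 1.16 in the FAK inhibitor graft and 1.01 in the untreated graft at day 7 over unwounded skin, with 4 and 3 of its 5 members higher. Of all genes, 25.6% and 21.3% were higher there. Without shared barcodes the complex III medians were 1.20 and 1.10, and 4 and 3 of 5 members were again higher, beside 819 of 3134 and 661 of 3115 genes. Its small subunit UQCRQ had 191 CPM in the FAK inhibitor graft and 168 CPM in the untreated graft at day 7, 72.0 CPM in the FAK inhibitor graft and 86.4 CPM in the untreated graft at day 90, and 69.4 CPM in unwounded skin. Both day 7 values stood far above the other 3. UQCRQ was 2.75-fold higher in the FAK inhibitor graft at day 7 (95% interval 2.59 to 2.92) and 2.43-fold higher in the untreated graft at day 7 (2.29 to 2.58) than in unwounded skin. UQCR10 had 244 and 219 CPM in the FAK inhibitor and untreated graft at day 7, against 109 CPM in unwounded skin. UQCRFS1, the Rieske iron-sulphur protein that carries electrons inside the complex, had 154 and 143 CPM in the FAK inhibitor and untreated graft at day 7, against 68.7 CPM in unwounded skin. The core proteins UQCRC1 and UQCRC2 moved less, with 159 and 116 CPM in the FAK inhibitor graft at day 7 against 101 and 78.0 CPM in unwounded skin.

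Complex I members had medians of 0.54 and 0.38 in the FAK inhibitor and untreated graft at day 7 over unwounded skin. Of 26 members, 12 and 8 were higher, where 25.6% and 21.3% of all genes were. Without shared barcodes the complex I medians were 0.57 and 0.40. Then 12 and 9 of 26 members were higher, beside 819 of 3134 and 661 of 3115 genes. NDUFB2, an accessory subunit of the membrane arm, had 263 CPM in the FAK inhibitor graft and 239 CPM in the untreated graft at day 7, 105 CPM in the FAK inhibitor graft and 149.5 CPM in the untreated graft at day 90, and 96.6 CPM in unwounded skin. That made it 2.72-fold higher in the FAK inhibitor graft at day 7 (2.59 to 2.86) and 2.48-fold higher in the untreated graft at day 7 (2.36 to 2.61) than in unwounded skin. NDUFV2, a core iron-sulphur subunit, had 179 and 139 CPM in the FAK inhibitor and untreated graft at day 7, against 83.4 CPM in unwounded skin.

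Among complex IV members, 5 of 11 were higher in each day 7 graft than in unwounded skin, with medians of 0.56 and 0.48 in the FAK inhibitor and untreated graft. Of all genes, 25.6% and 21.3% were higher there. Without shared barcodes 6 and 5 of 11 complex IV members were higher, with medians of 0.60 and 0.53, beside 819 of 3134 and 661 of 3115 genes. COX8A, the common isoform of the smallest nuclear subunit, had 718 CPM in the FAK inhibitor graft and 671 CPM in the untreated graft at day 7, 316 CPM in the FAK inhibitor graft and 311 CPM in the untreated graft at day 90, and 315 CPM in unwounded skin. Only the day 7 values stood apart among the 5 libraries. COX7A2, the ubiquitous isoform of subunit 7A, had 629.5 and 542 CPM in the FAK inhibitor and untreated graft at day 7, against 282 CPM in unwounded skin. COX4I1 was not called, with 1249.6 CPM in the FAK inhibitor graft and 1186 CPM in the untreated graft at day 7 against 849 CPM in unwounded skin.

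For complex V, 8 and 5 of 13 members were higher in the FAK inhibitor and untreated graft at day 7 than in unwounded skin, with medians of 0.72 and 0.48. Without shared barcodes 10 and 5 of 13 were higher, with medians of 0.77 and 0.53, beside 819 of 3134 and 661 of 3115 genes higher. ATP5MC1, one of several genes for the membrane ring subunit c, had 424 and 373 CPM in the FAK inhibitor and untreated graft at day 7, 243 and 281 CPM in the FAK inhibitor and untreated graft at day 90, and 198 CPM in unwounded skin. Of the 3 members of complex II, 0 were called in the FAK inhibitor or untreated graft at day 7 over unwounded skin. There 25.6% and 21.3% of all genes were higher and 24.2% and 19.3% lower. On 3 members such a count does not set the complex apart. Its medians, 0.28 in the FAK inhibitor graft and 0.14 in the untreated graft with or without shared barcodes, were the lowest of any complex. SDHB had 124 and 113 CPM in the FAK inhibitor and untreated graft at day 7 and 102 CPM in unwounded skin.

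**Figure D2:**
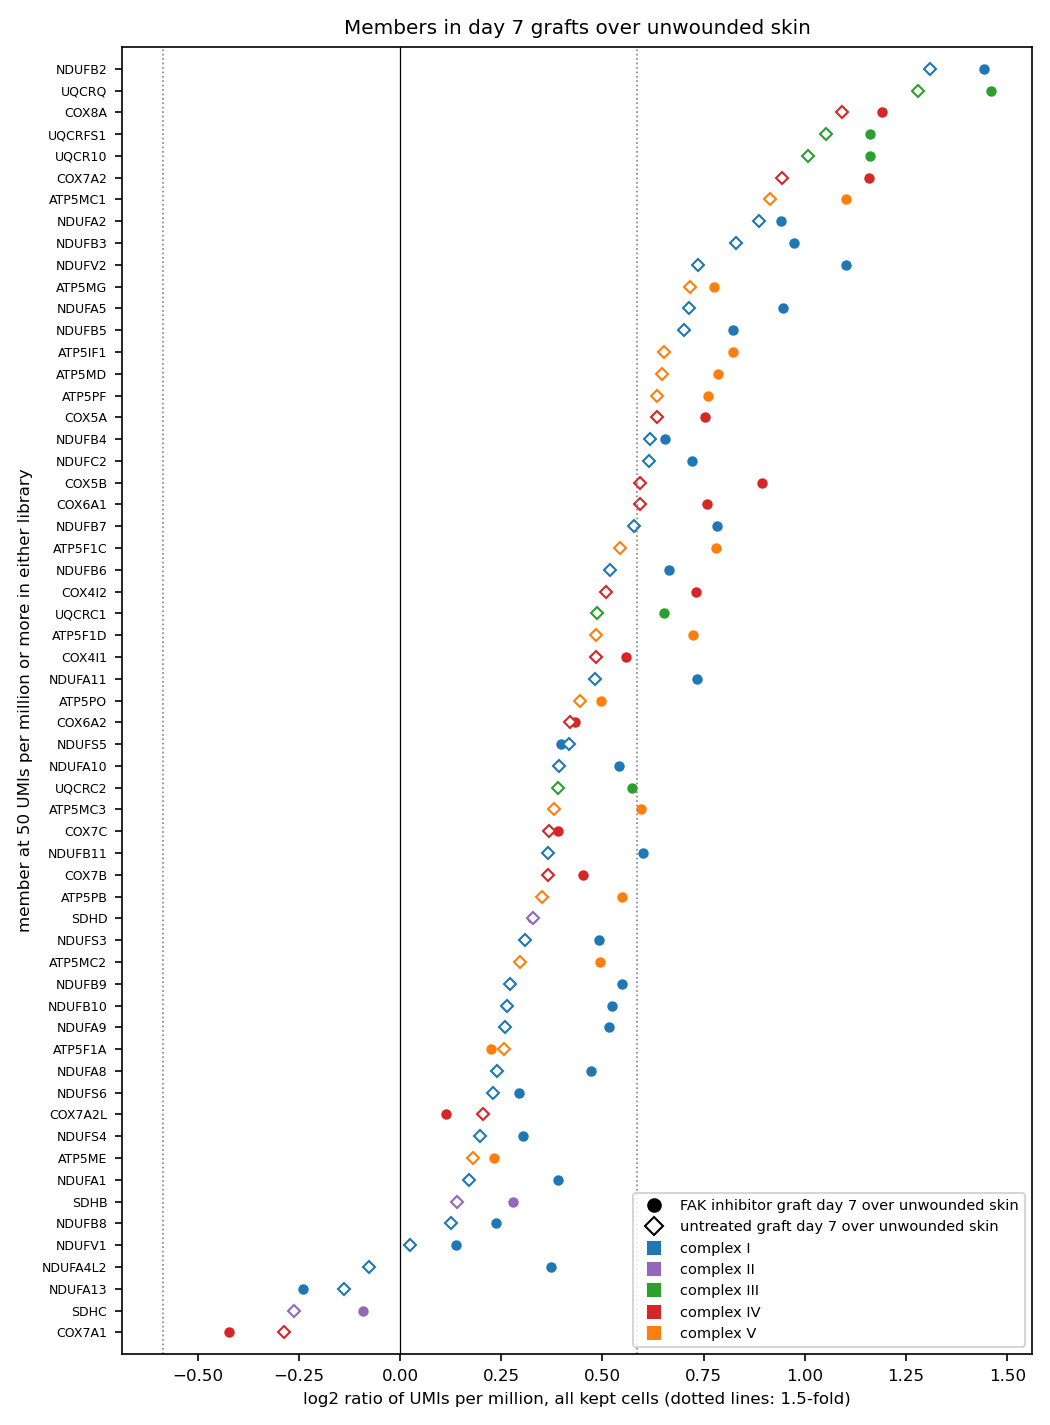
Log2 ratio over unwounded skin of members with at least 50 CPM, coloured by complex and ordered by the untreated ratio, for the FAK inhibitor graft at day 7 (filled circles) and the untreated graft at day 7 (open diamonds), with dotted lines at 1.5-fold. UQCRQ at 1.46 and NDUFB2 at 1.44 lie highest in the FAK inhibitor graft, and COX7A1 lies lowest at -0.42 in the FAK inhibitor graft and -0.29 in the untreated graft.

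At day 90 few members differed from unwounded skin by the rule of size. In the FAK inhibitor graft at day 90, 0 of 56 members were higher and 2 were lower, where 5.48% of all genes were higher and 6.44% lower. The median was 0.0066, and it was -0.019 when mitochondrially encoded and ribosomal protein genes were left out of the total and 0.044 without shared barcodes. In the untreated graft at day 90, 1 of 56 members was higher and 2 were lower than in unwounded skin, against 13.4% and 22.3% of all genes, with a median of 0.10. ATP5ME, subunit e of the membrane part of ATP synthase, was lower in both, with 133 and 140.2 CPM in the FAK inhibitor and untreated graft at day 90 against 211 CPM in unwounded skin. COX7A1 was the other, with 43.8 and 34.5 CPM in the FAK inhibitor and untreated graft at day 90 against 66.8 CPM in unwounded skin. Without shared barcodes 0 members were higher and 2 lower in the FAK inhibitor graft, and 1 higher and 1 lower in the untreated graft, where ATP5ME no longer reached 1.5-fold. Of all genes, 129 of 2875 were then higher and 184 lower in the FAK inhibitor graft. In the untreated graft 392 of 2993 genes were higher and 695 lower. NDUFB2 was the 1 member higher in the untreated graft at day 90, at 1.55-fold.

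Day 90 was then set against day 7 within each treatment. In FAK inhibitor grafts, 33 of 57 members were lower at day 90 than at day 7 and 0 were higher, where 24.0% of all genes were lower and 20.4% higher, and the median log2 ratio was -0.61 beside -0.10 over all genes. In untreated grafts, 13 of 58 were lower at day 90 than at day 7 and 0 were higher, against 18.9% and 10.5% of all genes, with medians of -0.38 and -0.18. The lowest ratios were those of UQCRQ at -1.40, NDUFB2 at -1.32 and UQCR10 at -1.25 in FAK inhibitor grafts, and of COX8A at -1.11, UQCRQ at -0.96 and ATP5MD at -0.89 in untreated grafts. By complex, 5 of 5 members of complex III were lower at day 90 in FAK inhibitor grafts and 3 of 5 in untreated grafts. The medians of complex II, -0.31 in both treatments, held no called member.

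The FAK inhibitor and the untreated graft differed little in these genes at either time. At day 7, 0 of 58 members were higher or lower with the inhibitor, where 3.11% of all genes were higher and 4.37% lower. The median log2 ratio was 0.14 beside 0.02 over all genes, and 51 of the 58 lay above 0. The summed level was 1.09-fold that of the untreated graft (1.09 to 1.10). At day 90, 0 of 55 members were called, against 11.6% of all genes higher and 6.47% lower, the median was -0.10 beside 0.08 over all genes, and 45 of the 55 lay below 0. The summed level was 0.947 times that of the untreated graft. NDUFV2 was the most raised member at day 7, 1.29-fold over the untreated graft, and NDUFB2 the lowest at day 90, at 0.705 times the untreated graft.

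The 13 subunits encoded in mitochondrial DNA did not follow the nuclear ones. They summed to 29927 CPM in the FAK inhibitor graft and 43741 CPM in the untreated graft at day 7, 41336 CPM in the FAK inhibitor graft and 29792 CPM in the untreated graft at day 90, and 50771 CPM in unwounded skin. Their ratio to the nuclear members was 2.03 for the FAK inhibitor graft and 3.24 for the untreated graft at day 7, 4.37 for the FAK inhibitor graft and 2.98 for the untreated graft at day 90, and 5.43 for unwounded skin. Over unwounded skin their median log2 ratio was -0.91 in the FAK inhibitor graft and -0.22 in the untreated graft at day 7, where the nuclear medians were 0.58 and 0.43. Without shared barcodes these medians over unwounded skin were -0.87 and -0.19. Against the untreated graft, the inhibitor medians were -0.63 at day 7 and 0.48 at day 90, opposite in sign to the nuclear medians at both times. Of 12 encoded genes at 50 CPM, 7 were lower at day 7, where 4.37% of all genes were lower, and 2 were higher at day 90, where 11.6% of all genes were higher. ND3, a core subunit of complex I, had 129.6 and 333 CPM in the FAK inhibitor and untreated graft at day 7, and 1352 CPM in unwounded skin. The share of mitochondrial UMIs, which also serves as a sign of cell quality, had a median per cell of 2.96% and 4.64% in the FAK inhibitor and untreated graft at day 7, 4.24% and 2.92% in the FAK inhibitor and untreated graft at day 90, and 4.82% in unwounded skin. Its part in the member values was not tested.

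Other nuclear genes of mitochondria were described by the same rule, beside the 25.6% of all genes higher and 24.2% lower in the FAK inhibitor graft at day 7 than in unwounded skin, and the 21.3% and 19.3% in the untreated graft at day 7. Of the mitochondrial ribosomal proteins, which translate the 13 encoded subunits, 15 of 31 at 50 CPM were higher in the FAK inhibitor graft and 10 of 26 in the untreated graft, with 0 lower in either and medians of 0.58 and 0.49. Of assembly factors for the complexes, 5 of 8 were higher in the FAK inhibitor graft and 3 of 8 in the untreated graft, with 0 lower and medians of 0.65 and 0.44. Carriers and other chain genes, among them cytochrome c and the adenine nucleotide translocators, had 6 of 10 higher in the FAK inhibitor graft and 4 of 10 in the untreated graft, with 0 lower and medians of 0.71 and 0.49. Enzymes of the citric acid cycle and pyruvate dehydrogenase had 0 of 10 higher and 1 lower in each graft, with medians of -0.16 and -0.05. Genes of hypoxia and glycolysis had 2 higher and 1 lower of 7 in the FAK inhibitor graft and of 8 in the untreated graft, with medians of 0.42 and 0.35, so their counts of higher genes lay near the share of all genes. Without shared barcodes the medians of the FAK inhibitor and untreated graft were 0.68 and 0.63 for the ribosomal proteins, 0.65 and 0.46 for assembly factors, 0.66 and 0.47 for carriers, -0.14 and -0.012 for the citric acid cycle and 0.45 and 0.23 for hypoxia and glycolysis. In the same order of grafts, 18 of 31 and 15 of 26 ribosomal proteins were then higher. So were 6 of 8 and 3 of 8 assembly factors, and 7 of 10 and 4 of 10 carriers. Over all genes, 819 of 3134 and 661 of 3115 were. In the untreated graft 1 carrier and 0 citric acid cycle enzymes were then lower, beside 579 of 3115 genes. None of the 11 regulators of mitochondrial biogenesis, such as PPARGC1A and TFAM, reached 50 CPM.

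Cell classes were named by RNA markers and are called fibroblast-like and so on for that reason. Clustering left out the members and the mitochondrially encoded genes, so the classes were not built from them. The pericyte or smooth muscle class is called mural-like here. The order of the libraries recurred in several classes. In fibroblast-like cells the 62 members summed to 14993 CPM in the FAK inhibitor graft and 13639 CPM in the untreated graft at day 7, 8641 CPM in the FAK inhibitor graft and 9597 CPM in the untreated graft at day 90, and 7721 CPM in unwounded skin. In mural-like cells the sums were 15192 and 13408 CPM in the FAK inhibitor and untreated graft at day 7, 10511 and 11610 CPM in the FAK inhibitor and untreated graft at day 90, and 10211 CPM in unwounded skin. In endothelial-like cells they were 12440 and 11477 CPM in the FAK inhibitor and untreated graft at day 7, 9304 and 10192 CPM in the FAK inhibitor and untreated graft at day 90, and 8097 CPM in unwounded skin. Keratinocyte-like cells had the highest sum of any class at day 7, with 19907 CPM in the FAK inhibitor graft and 17408 CPM in the untreated graft, against 12112 CPM in unwounded skin.

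Fibroblast-like cells had the largest member median over unwounded skin among the 5 classes with at least 50 cells in each of those libraries, in a class where all genes had the largest median too. Of 58 members, 45 were higher in the FAK inhibitor graft at day 7 than in unwounded skin and 40 in the untreated graft, with medians of 0.92 and 0.78. In this class 42.6% and 37.6% of all genes were higher too, and the medians of all genes were 0.38 and 0.34. COX7A1 was lower in the FAK inhibitor graft, the 1 of 58, and 0 were lower in the untreated graft, where 20.5% and 16.7% of all genes were lower. Without shared barcodes the counts of higher members were again 45 and 40, beside 1140 of 2715 and 974 of 2661 genes, and the member medians 0.88 and 0.74. Different clusters held the class. At day 7 most of its cells lay in clusters led by GREM1, F13A1 and C3 or by IL11, MMP13 and CLU, while 243 of 259 cells of unwounded skin lay in a cluster led by FBLN1, C4A and TNXB. At day 90 that cluster held 570 of 789 cells of the FAK inhibitor graft, and a cluster led by THBS4, COL11A1 and TNMD held 1039 of 2093 cells of the untreated graft. Within the FBLN1-led cluster alone the sums kept the same order, with 12156 and 11126 CPM in the FAK inhibitor and untreated graft at day 7, 8254 and 8692 CPM in the FAK inhibitor and untreated graft at day 90, and 7463 CPM in unwounded skin. At day 7 this cluster held 86 of 1418 cells in the FAK inhibitor graft and 173 of 1411 in the untreated graft.

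UQCRQ, COX8A, ATP5MC2 and NDUFB2 led the fibroblast-like list. UQCRQ had 210.4 CPM in the FAK inhibitor graft and 191 CPM in the untreated graft at day 7, 77.4 CPM in the FAK inhibitor graft and 92.9 CPM in the untreated graft at day 90, and 52.6 CPM in unwounded skin. ATP5MC2, another gene for subunit c, had 283 and 236 CPM in the FAK inhibitor and untreated graft at day 7, 108 and 163 CPM in the FAK inhibitor and untreated graft at day 90, and 76.0 CPM in unwounded skin. It was the only member of this class, the 2 set apart aside, to pass 1.5-fold between the treatments at day 90, with a log2 ratio of -0.60, where 5.58% of all genes were lower. COX7A2L, which takes part in joining complexes III and IV, had 121 and 125 CPM in the FAK inhibitor and untreated graft at day 7, 100.3 and 124 CPM in the FAK inhibitor and untreated graft at day 90, and 63.5 CPM in unwounded skin, so that it stayed above unwounded skin at both times. COX7A2, UQCRFS1, UQCRC1, NDUFA5 and COX5B were also among the most raised in the FAK inhibitor graft at day 7, with log2 ratios of 1.37 or more.

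In mural-like cells 26 of 58 members were higher in the FAK inhibitor graft at day 7 than in unwounded skin and 16 of 58 in the untreated graft, where 24.1% and 20.1% of all genes were. The member medians were 0.56 and 0.33, beside -0.040 and 0.015 over all genes. In the FAK inhibitor graft 0 were lower and in the untreated graft 1 was, SDHC, where 27.8% and 20.9% of all genes were lower. Without shared barcodes 26 and 17 members were higher, where 744 of 3110 and 626 of 3112 genes were. UQCRQ again led, with 165 and 131 CPM in the FAK inhibitor and untreated graft at day 7 against 51.5 CPM in unwounded skin, followed by NDUFB2, COX8A and ATP5MC1. SDHC, which anchors complex II in the membrane, went the other way in this class. It had 65.2 CPM in the FAK inhibitor graft and 56.6 CPM in the untreated graft at day 7, 112 CPM in the FAK inhibitor graft and 106 CPM in the untreated graft at day 90, and 95.9 CPM in unwounded skin. Its log2 ratio of day 90 over day 7 was 0.78 in FAK inhibitor grafts and 0.90 in untreated grafts, the only one of the 62 members called higher at day 90 in this class, where 23.1% of all genes were higher at day 90 in FAK inhibitor grafts and 10.4% in untreated grafts. At day 7 a cluster led by CA4 and CXCL10 held 1155 of 2426 cells in the FAK inhibitor graft and 648 of 1698 in the untreated graft, against 31 of 307 in unwounded skin.

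In endothelial-like cells 26 of 56 members were higher in the FAK inhibitor graft at day 7 than in unwounded skin and 19 of 55 in the untreated graft, against 23.4% and 22.4% of all genes. The member medians were 0.57 and 0.40, beside 0.091 and 0.12 over all genes, and 0 members were lower in either, where 19.4% and 15.5% of all genes were. Without shared barcodes 27 and 18 members were higher, where 734 of 3091 and 762 of 3159 genes were. NDUFB2, UQCRFS1, COX8A and ATP5MC1 had the largest ratios in the FAK inhibitor graft, between 1.21 and 1.35 on the log2 scale. A cluster led by CXCL11 and CXCL9 held 693 of 1235 cells in the FAK inhibitor graft and 654 of 1619 in the untreated graft at day 7, while the clusters led by ACKR1 and by GPIHBP1 were the largest in unwounded skin. In the ACKR1-led cluster, present in all libraries, the member sums were 12040 and 11447 CPM in the FAK inhibitor and untreated graft at day 7, 8585 and 9540 CPM in the FAK inhibitor and untreated graft at day 90, and 7945 CPM in unwounded skin. The day 7 sums rest on 75 of 1235 cells in the FAK inhibitor graft and 78 of 1619 in the untreated graft.

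In keratinocyte-like cells 31 of 57 members were higher in the FAK inhibitor graft at day 7 than in unwounded skin and 20 of 57 in the untreated graft, where 29.7% and 25% of all genes were. The member medians were 0.69 and 0.52, beside 0.12 and 0.15 over all genes, and 0 members were lower in either, where 22.4% and 17.1% of all genes were. Without shared barcodes 35 and 29 members were higher, with medians of 0.73 and 0.59, beside 905 of 2852 and 801 of 2858 genes higher. Complex III was again prominent, with a sum of 1762 CPM in the FAK inhibitor graft and 1518 CPM in the untreated graft at day 7, 594 CPM in the FAK inhibitor graft at day 90 and 688 CPM in unwounded skin. UQCR10 alone had 598 and 480.3 CPM in the FAK inhibitor and untreated graft at day 7, against 143 CPM in unwounded skin. The untreated graft at day 90 had 29 keratinocyte-like cells and was left out of this class. Mast-like cells, with 59 in unwounded skin, had 31 of 56 and 25 of 55 members higher in the FAK inhibitor and untreated graft at day 7, against 20.7% and 18.4% of all genes. COX6A2 was lower in both and NDUFV1 and NDUFS3 in the untreated graft alone, so that 1 of 56 and 3 of 55 were lower, where 36.1% and 39.0% of all genes were. These 3 had 11 to 14 UMIs in unwounded skin. The member medians in mast-like cells were 0.67 and 0.47, beside -0.25 and -0.33 over all genes, and without shared barcodes they were 0.69 and 0.46. Then 31 and 26 members were higher, where 683 of 3186 and 593 of 3135 genes were. T or NK-like and myeloid-like cells were too few in unwounded skin for a ratio.

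Between treatments, the small difference seen over all cells recurred in most classes. At day 7 the member median of the FAK inhibitor over the untreated graft was 0.16 in fibroblast-like, 0.11 in endothelial-like, 0.19 in mural-like, 0.17 in keratinocyte-like and 0.12 in T or NK-like cells, and it lay above 0 in 8 of 10 classes. Myeloid-like cells went the other way at -0.21 and dendritic-like cells at -0.061. Over all genes the day 7 medians were 0.058 in fibroblast-like, 0.0029 in endothelial-like and -0.018 in mural-like cells. They were -0.0012 in keratinocyte-like and 0.028 in T or NK-like cells. The member median lay above that of all genes in 7 of 10 classes. At day 90 it lay below 0 in 7 of 7 classes, at -0.15 in endothelial-like and in mural-like cells and at -0.19 in fibroblast-like cells, though with separate clustering of each library the fibroblast-like value turned to 0.02. All genes had day 90 medians of -0.050 in endothelial-like, -0.041 in mural-like and -0.13 in fibroblast-like cells. The member median lay below that of all genes in 7 of 7 classes. The member median furthest from 0 was -0.36 in T or NK-like cells, beside 0.020 over all genes. There 15 of 55 members were lower in the FAK inhibitor graft against 14.1% of all genes, on 76 cells. Mitochondrially encoded genes lay below 0 in 10 of 10 classes at day 7 and above 0 in 7 of 7 classes at day 90.

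**Figure D3:**
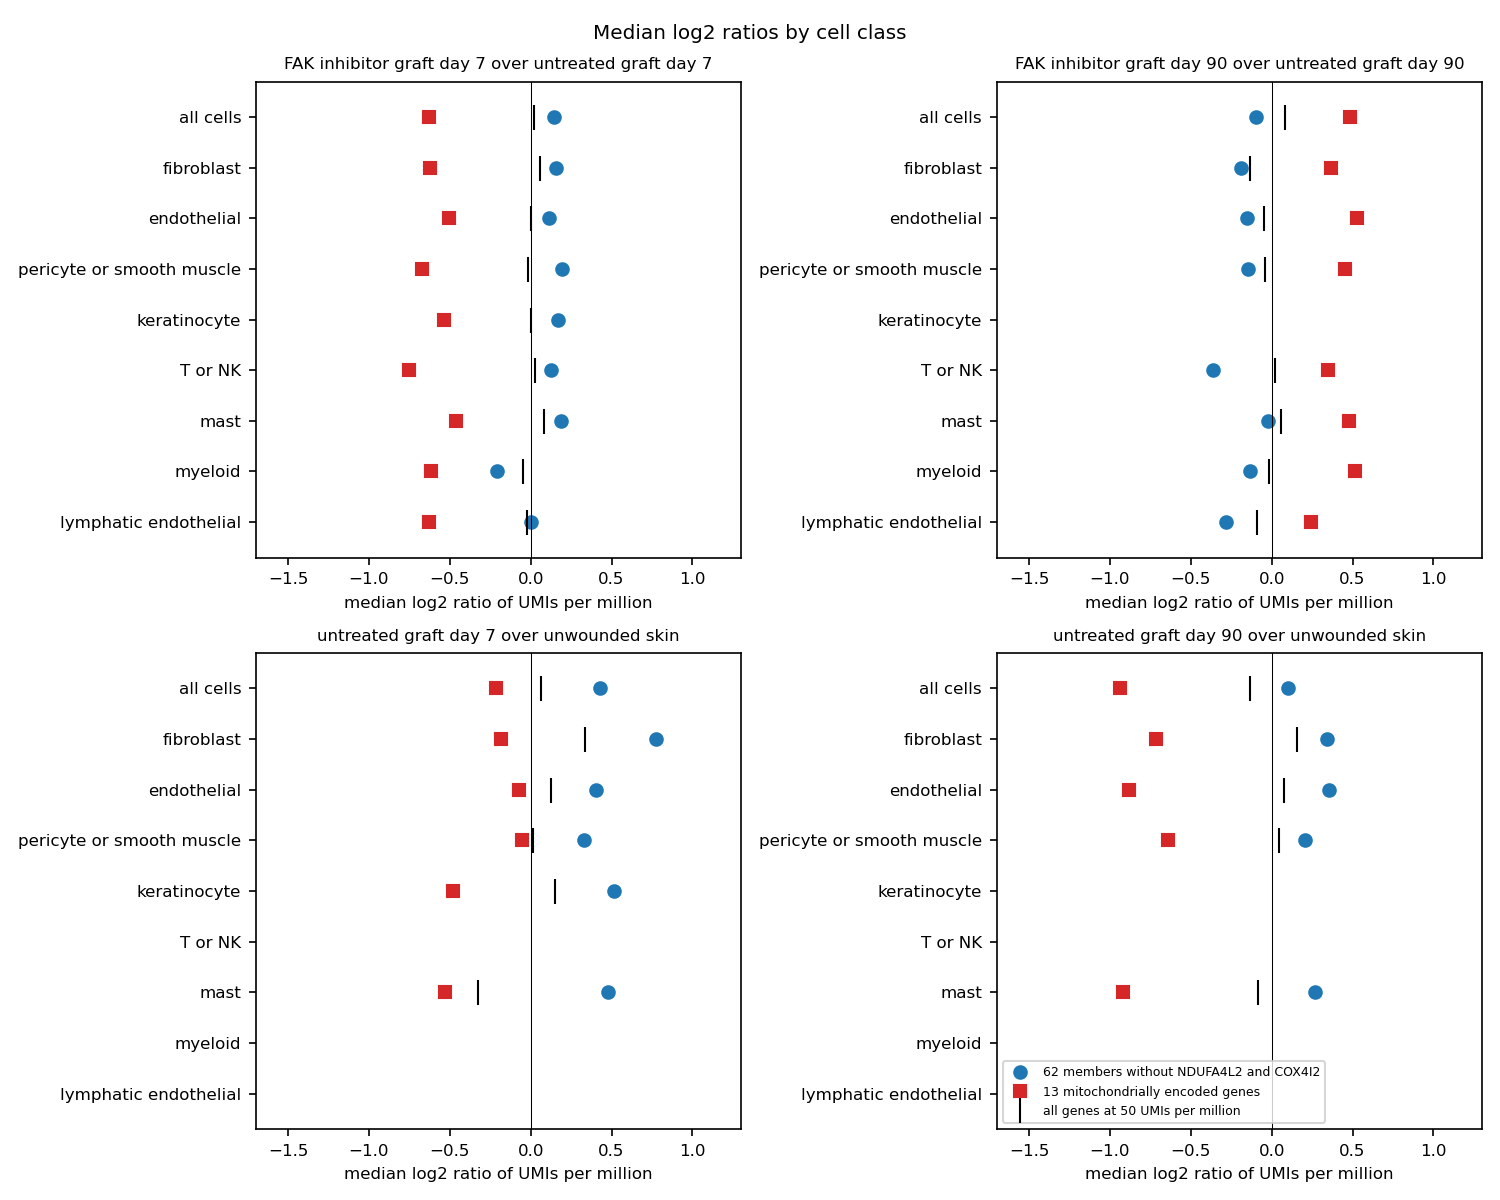
Median log2 ratio by cell class of the 62 nuclear members (blue circles), the 13 mitochondrially encoded genes (red squares) and all genes (black ticks), at 50 CPM or more, in 4 comparisons. For the FAK inhibitor over the untreated graft, nuclear medians lie right of 0 or at 0 at day 7 in the classes drawn except myeloid-like at -0.21, and left of 0 in 7 of 7 at day 90, where the fibroblast-like one turned to 0.02 with separate clustering of each library, and mitochondrially encoded medians lie on the other side of 0 in most classes.

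In grafts over unwounded skin the muscle isoform COX7A1 ran against its ubiquitous partner COX7A2, while both were lower at day 90 than at day 7. COX7A1 had 49.8 CPM in the FAK inhibitor graft and 54.7 CPM in the untreated graft at day 7, 43.8 CPM in the FAK inhibitor graft and 34.5 CPM in the untreated graft at day 90, and 66.8 CPM in unwounded skin. All 4 grafts lay below unwounded skin. As a share of both isoforms it was 7.34% and 9.17% in the FAK inhibitor and untreated graft at day 7, 11.9% and 8.93% in the FAK inhibitor and untreated graft at day 90, and 19.2% in unwounded skin (exact binomial interval 18.2 to 20.2). The same held in fibroblast-like cells, where the share was 9.35% and 14.0% in the FAK inhibitor and untreated graft at day 7, 14.3% and 9.51% in the FAK inhibitor and untreated graft at day 90, and 31.3% in unwounded skin. In mural-like cells it was 9.36% and 11.7% in the FAK inhibitor and untreated graft at day 7, 14.9% and 11% in the FAK inhibitor and untreated graft at day 90, and 23.1% in unwounded skin. Without shared barcodes the share in unwounded skin was 20.8% over all cells, 31.0% in fibroblast-like and 23.1% in mural-like cells. Keratinocyte-like cells used almost only COX7A2, with COX7A1 at 0.46% to 2.93% of the pair, and at 3.84% in unwounded skin without shared barcodes.

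COX6A2, the muscle isoform of subunit 6A, took a steadier share of its pair with COX6A1, at 13.6% and 14.9% in the FAK inhibitor and untreated graft at day 7, 15.5% and 14.8% in the FAK inhibitor and untreated graft at day 90, and 16.5% in unwounded skin. It was found in keratinocyte-like cells at 16.8% to 23.6% of the pair and in myeloid-like cells at 4.5% to 6.2%. The skeletal muscle marker list, with 5 of 8 genes measured, summed to 0 to 15.1 CPM in the classes. COX6B2, a testis isoform, was low in every library, between 0.592 and 6.99 CPM.

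NDUFA4L2 and COX4I2 differed from most other members in being concentrated in few cell classes. Both stood high in mural-like cells and in part of the endothelial-like cells, and NDUFA4L2 also in keratinocyte-like cells. In mural-like cells NDUFA4L2 had 464 CPM in the FAK inhibitor graft and 405 CPM in the untreated graft at day 7, 578 CPM in the FAK inhibitor graft and 582 CPM in the untreated graft at day 90, and 362 CPM in unwounded skin. COX4I2 had 477 CPM in the FAK inhibitor graft and 548 CPM in the untreated graft at day 7, 719.6 CPM in the FAK inhibitor graft and 777 CPM in the untreated graft at day 90, and 528 CPM in unwounded skin. Levels of this size stood in every library, far above those of T or NK-like cells, where NDUFA4L2 stayed between 4.87 and 10.1 CPM and COX4I2 between 0 and 7.83 CPM.

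The share of cells with a UMI gave the same contrast between classes. Of mural-like cells, 70.8% and 63.4% had a UMI of NDUFA4L2 in the FAK inhibitor and untreated graft at day 7, 64.5% and 67.8% in the FAK inhibitor and untreated graft at day 90, and 47.6% in unwounded skin (exact binomial interval 41.9 to 53.3), at median depths of 5489 to 6799.5 UMIs. In T or NK-like cells, which served as the level of free RNA, the share was 1.09% to 2.82% at median depths of 1968 to 2402 UMIs. All 5 mural-like shares were far above that level. With every cell thinned to 2000 UMIs the mural-like shares were 48.3% and 45.3% in the FAK inhibitor and untreated graft at day 7, 49.0% and 52.5% in the FAK inhibitor and untreated graft at day 90, and 36.2% in unwounded skin (30.7 to 42.0), leaving out shallower cells, and the T or NK-like shares 0.704% to 4.07%.

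**Figure D4:**
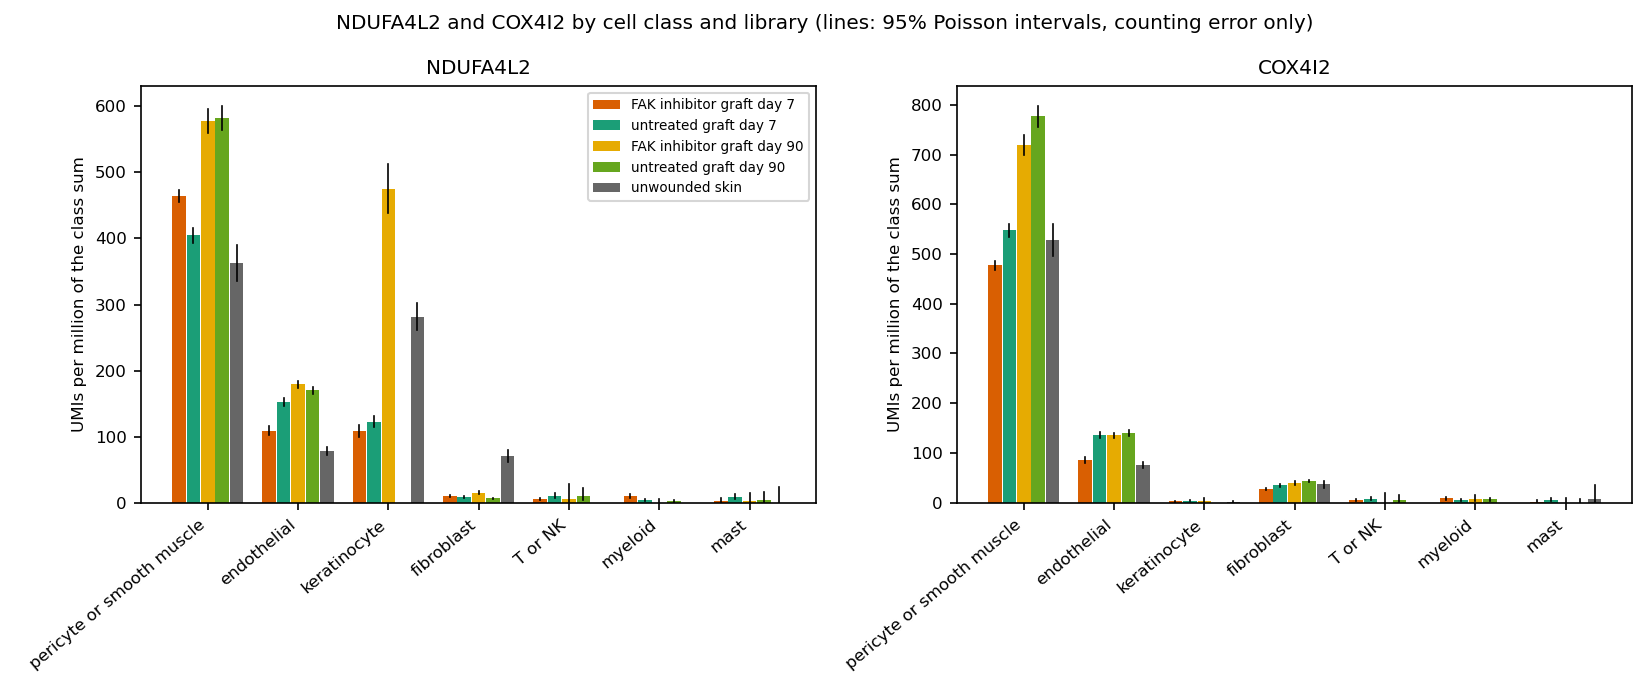
NDUFA4L2 and COX4I2 in CPM by cell class and library, with lines for 95% Poisson intervals of counting error. Mural-like cells reach 582 CPM of NDUFA4L2 and 777 CPM of COX4I2 in the untreated graft at day 90, and keratinocyte-like cells carry NDUFA4L2 at up to 475 CPM with COX4I2 at 3.70 CPM or less.

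Both genes had greater values at day 90 than at day 7 in mural-like cells, in either treatment. NDUFA4L2 was 1.25-fold higher at day 90 in FAK inhibitor grafts and 1.44-fold higher in untreated grafts, neither of which reached the rule of size, and COX4I2 was 1.51-fold higher (1.46 to 1.56) in FAK inhibitor grafts and 1.42-fold higher in untreated grafts. The 1.51-fold ratio, 0.59 on the log2 scale, came to 0.50 as a mean over cells and 0.52 without cycling clusters, both under the rule of size. Over unwounded skin NDUFA4L2 was 1.60-fold higher in the FAK inhibitor graft (1.47 to 1.73) and 1.61-fold higher in the untreated graft at day 90 (1.48 to 1.74). Without shared barcodes these ratios were 0.66 and 0.69 on the log2 scale. They came down to log2 values of 0.25 and 0.12 when the clusters present in both libraries were weighed the same, where they were 0.68 and 0.69 over the class, so neither then reached 1.5-fold. Between treatments at day 90 the level in mural-like cells was 0.993 times that of the untreated graft (0.950 to 1.04). Over all cells at day 90, NDUFA4L2 had 185 CPM in the FAK inhibitor graft and 103 CPM in the untreated graft, a 1.79-fold difference (1.74 to 1.85), in libraries with 1029 of 3693 and 993 of 5388 mural-like cells.

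Clusters of the mural-like class differed between the genes. In the cluster led by CCL19 and DES, NDUFA4L2 had 405 and 391 CPM in the FAK inhibitor and untreated graft at day 7, 659 and 629 CPM in the FAK inhibitor and untreated graft at day 90, and 313 CPM in unwounded skin. In the cluster led by ITIH4 and MYH11, a smooth muscle myosin gene, it had 483 and 314 CPM in the FAK inhibitor and untreated graft at day 7, 442 and 458 CPM in the FAK inhibitor and untreated graft at day 90, and 313 CPM in unwounded skin. COX4I2 was highest in that MYH11 cluster at day 90, with 834 CPM in the FAK inhibitor graft and 944 CPM in the untreated graft, against 772 CPM in unwounded skin. In the cluster led by CA4 and CXCL10, NDUFA4L2 reached 877 CPM in unwounded skin, on 31 cells.

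The isoform balance of mural-like cells moved with time. COX4I2 made up 27.4% and 32.1% of its pair with COX4I1 in the FAK inhibitor and untreated graft at day 7, 39.1% and 41.4% in the FAK inhibitor and untreated graft at day 90, and 33.8% in unwounded skin. NDUFA4L2 made up 51.3% and 49.3% of its pair with NDUFA4 in the FAK inhibitor and untreated graft at day 7, 63.7% and 67.6% in the FAK inhibitor and untreated graft at day 90, and 44.8% in unwounded skin. Without shared barcodes unwounded skin had 33.9% and 44.9%. Both pairs thus leaned furthest to the restricted isoform in the day 90 grafts. In unwounded skin, the library with the fewest UMIs, the exact binomial intervals were 32.2% to 35.5% for COX4I2 and 42.4% to 47.3% for NDUFA4L2. Over all cells the COX4I2 share was 10.7% to 15.9%.

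Endothelial-like cells held both genes mainly in 1 cluster, led by GPIHBP1, RBP7 and BTNL9, of which GPIHBP1 marks capillary endothelium. NDUFA4L2 in that cluster was 321 and 282 CPM in the FAK inhibitor and untreated graft at day 7, 360.0 and 347 CPM in the FAK inhibitor and untreated graft at day 90, and 148 CPM in unwounded skin. In the other endothelial-like cells it was 6.40 to 39.8 CPM. The cluster made up 15.5% to 26.4% of the class and held 84.2% to 96.0% of its NDUFA4L2 UMIs. Mural markers moved with it. The 12 of them summed to 4098 to 6308 CPM in this cluster and 341 to 1014 CPM in the other endothelial-like cells, against 18891 to 21111 CPM in mural-like cells, and the pericyte gene RGS5 had 1376 to 2417 CPM in the cluster. Its cells had median depths of 10748 to 32132 UMIs, against 5130 to 7961 in the other endothelial-like cells. The part of mixed droplets in these values was not tested.

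Ratios of both genes over the whole endothelial-like class moved with the clustering and with shared barcodes, and the cause was not tested. NDUFA4L2 had a log2 ratio of 1.20 in the FAK inhibitor graft at day 90 over unwounded skin, 1.41 without shared barcodes, and -1.45 when each library was clustered alone. COX4I2 had a log2 ratio of 0.83 in the same comparison, 1.24 without shared barcodes and -1.38 when each library was clustered alone. For COX4I2 in the FAK inhibitor graft at day 7 over unwounded skin the ratio was 0.18, and 0.81 without shared barcodes.

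**Figure D5:**
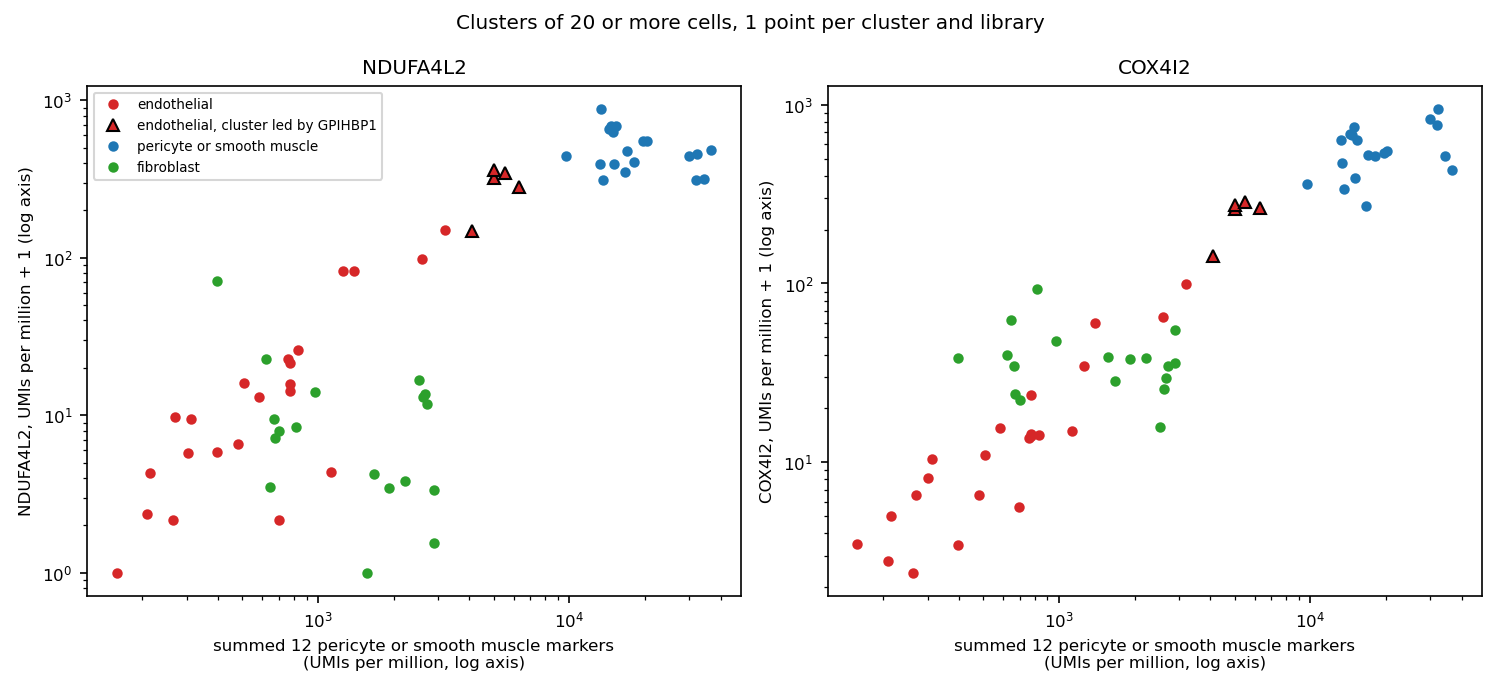
NDUFA4L2 and COX4I2 (CPM + 1) against the summed CPM of the 12 pericyte or smooth muscle markers, 1 point per cluster and library with at least 20 cells, both axes on a log scale. Points are mural-like, endothelial-like and fibroblast-like clusters. Mural-like clusters lie at the upper right, and the GPIHBP1-led endothelial-like cluster (triangles) lies between them and the other endothelial-like clusters.

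Keratinocyte-like cells held NDUFA4L2 with little COX4I2. NDUFA4L2 had 108 CPM in the FAK inhibitor graft and 122 CPM in the untreated graft at day 7, 475 CPM in the FAK inhibitor graft at day 90, and 281 CPM in unwounded skin. Both day 7 grafts thus lay below unwounded skin, at 0.384 and 0.435 times its level in the FAK inhibitor and untreated graft. In FAK inhibitor grafts the day 90 level was 4.40-fold that of day 7 (3.93 to 4.91), on 65 cells at day 90. Over unwounded skin the day 90 graft was 1.69-fold higher, and without shared barcodes the log2 ratio of 0.76 became 0.47, under the rule of size. COX4I2 had 14 and 23 UMIs in the FAK inhibitor and untreated graft at day 7, 5 in the FAK inhibitor graft at day 90 and 4 in unwounded skin. Mural markers summed to 184 to 453 CPM in these cells, against 18891 CPM or more in mural-like cells. Of keratinocyte-like cells, 37.2% and 38.2% had a UMI of NDUFA4L2 in the FAK inhibitor and untreated graft at day 7, 72.3% in the FAK inhibitor graft at day 90 and 76.6% in unwounded skin, at median depths of 12363 to 14361 UMIs. After thinning the shares were 14.8% and 16.6% in the FAK inhibitor and untreated graft at day 7, 50% in the FAK inhibitor graft at day 90 (36.3 to 63.7) and 41.4% in unwounded skin (32.9 to 50.2). Both day 7 grafts lay below the other libraries either way, and the intervals of the day 90 graft and unwounded skin overlapped. Its share of the pair with NDUFA4 was 11.5% and 15.5% in the FAK inhibitor and untreated graft at day 7, 65.6% in the FAK inhibitor graft at day 90 and 48.1% in unwounded skin, or 56.8% without shared barcodes.

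Fibroblast-like cells of unwounded skin also carried NDUFA4L2, at 70.0 CPM, where it had 10.2 and 7.78 CPM in the FAK inhibitor and untreated graft at day 7 and 14.9 and 6.56 CPM in the FAK inhibitor and untreated graft at day 90. The log2 ratio over unwounded skin lay between -3.42 and -2.23, and between -3.45 and -2.22 without shared barcodes. Of the 259 fibroblast-like cells of unwounded skin 48 had a UMI, 28 had 3 or more, and the highest count in a cell was 20. Those 28 cells held 89.3% of the NDUFA4L2 UMIs, so the level rests on a small part of the class. Their median depth was 16953.5 UMIs, above that of the cells with none of this gene. Within the FBLN1-led cluster alone NDUFA4L2 had 2.50 and 7.38 CPM in the FAK inhibitor and untreated graft at day 7, 21.9 and 13.1 CPM in the FAK inhibitor and untreated graft at day 90, and 70.0 CPM in unwounded skin. Mural markers summed to 406 CPM in fibroblast-like cells of unwounded skin and 1220 to 2465 CPM in those of the 4 grafts. Whether mixed droplets or free RNA had a part in the NDUFA4L2 values was not tested.

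The genes most like NDUFA4L2 in level over the 41 sums of a class in a library were NOTCH3, ANO1, IL17B, SOX6 and NPNT, with Pearson correlations of log2(CPM + 1) between 0.858 and 0.909. Those most like COX4I2 were AVPR1A, SLC7A2, ADAMTS4, KCNJ8 and KCNE4, between 0.933 and 0.957. NOTCH3 and KCNJ8 were also on the mural marker list. The sums share their 5 libraries, and 6058 genes were compared.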

How the data were processed

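The authors deposited matrices of UMI counts per gene and cell barcode, made from enzyme-digested skin with a droplet method that reads transcript ends, per the labels' protocols. Cell Ranger, with no version, and Seurat 3.1.1 are named in the submitters' processing notes. The genome build was not given in the sources used here. Symbols were found for 15351 of the 20286 gene identifiers, 677 through a separate table.

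The cell filter required 500 genes or more and no more than 25% of UMIs in the 13 genes of mitochondrial DNA. Scrublet's own threshold called 0, 0, 3, 83 and 5 doublets (FAK inhibitor and untreated graft at day 7, FAK inhibitor and untreated graft at day 90, unwounded skin), so the top-scoring 700, 524, 116, 255 and 19 cells were removed, at 0.8% per 1000 cells. Clustering used 2000 variable genes without the members and mitochondrially encoded genes, 30 principal components, 20 neighbours and Leiden resolution 1, and gave 28 clusters. A cluster took the class with a marker score of at least 0.8, a lead of 0.5, and at least 3 markers and 50% of those measured raised 1.5-fold. This left 2 clusters unnamed.

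UMIs were summed per library, or per class with at least 50 cells, and scaled to 1000000. Intervals are exact Poisson for levels and exact conditional binomial for ratios, at 95%. Genes were named by level and size of ratio: the highest and lowest of each complex, up to 10 past 1.5-fold each way in a comparison, and the isoform pairs. COX6B2 and NDUFS8, under 50 CPM in all libraries, were not called. A complex I member counts in the sums and medians and is not reported here. The ratio step was tested on simulated data. Members, lists and markers were chosen with earlier results of these data known. Python 3.11.15, Scanpy 1.11.5, NumPy 2.4.6, SciPy 1.17.1, pandas 2.3.3, igraph 0.11.9, scikit-learn 1.9.0 and Matplotlib 3.10.9 were used.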

Additional observations from a re-analysis of the deposited data

Results flagged for a closer look

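Some effects ran in opposite directions in paired comparisons, with 1 library per group, so none of these differences was tested. The median log2 ratio of the nuclear members, FAK inhibitor over untreated graft, was 0.14 at day 7 and -0.098 at day 90 over all cells. By class it was 0.16 at day 7 and -0.19 at day 90 in fibroblast-like cells (0.016 at day 90 with each library clustered alone), 0.11 and -0.15 in endothelial-like cells, and 0.19 and -0.15 in mural-like cells.

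Mitochondrially encoded genes ran the other way in the same comparison. Their median was -0.63 at day 7 and 0.48 at day 90 over all cells, -0.62 and 0.37 in fibroblast-like cells, -0.50 and 0.53 in endothelial-like cells, and -0.67 and 0.45 in mural-like cells. Set as day 90 over day 7, their median was 0.35 in FAK inhibitor grafts and -0.66 in untreated grafts over all cells. It was 0.46 and -0.43 in fibroblast-like cells of FAK inhibitor and untreated grafts, 0.22 and -0.66 in endothelial-like cells of FAK inhibitor and untreated grafts, and 0.54 and -0.45 in mural-like cells of FAK inhibitor and untreated grafts. These comparisons use the same 4 graft libraries and are not independent of each other.

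Over all cells, the day 90 over day 7 log2 ratio of NDUFA4L2 was 0.11 in FAK inhibitor grafts and -0.28 in untreated grafts, and that of COX4I2 was 0.091 in FAK inhibitor grafts and -0.13 in untreated grafts. Within mural-like cells the day 90 level of both genes was above that of day 7 in either treatment.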

How the results depend on the processing

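No paired analysis was possible because each group is 1 library, and no library could be left out of a group for the same reason. Of 1211 values under 13 other settings, 928 stayed the same, 235 moved further, 28 no longer reached 1.5-fold, 14 newly reached it and 6 turned round. A median counted as the same within the counting error of the summed ratio, which is not an error of the median. A count of members did so within 1.5-fold of its main value, and a single gene on the same side of 1.5-fold. Leaving out shared barcodes or cycling clusters and weighing shared clusters the same were chosen after seeing the data. Member medians over all cells are given by comparison. For the FAK inhibitor over the untreated graft at day 7 (0.14) they were 0.13 with all barcodes, 0.16 with the stricter cell filter, 0.12 without mitochondrial and ribosomal genes in the total, 0.065 as a mean over cells, 0.12 thinned, 0.12 without cycling clusters and 0.11 centred on all genes. At day 90 (-0.10) they were -0.053 without those genes in the total, -0.068 as a mean over cells, -0.091 thinned and -0.15 centred.

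For the FAK inhibitor graft at day 7 over unwounded skin (0.58) the median was 0.57 with all barcodes, 0.63 with the stricter filter, 0.57 with doublets kept, 0.57 without mitochondrial and ribosomal genes in the total, 0.48 as a mean over cells, 0.56 thinned, 0.63 without shared barcodes, 0.55 without cycling clusters, 0.44 centred and 0.57 with members at 10 CPM. The count of higher members was 18 as a mean over cells, where it was 29. For the untreated graft at day 7 over unwounded skin (0.43) the median was 0.48 with the stricter filter, 0.37 as a mean over cells, 0.40 thinned, 0.52 without shared barcodes, 0.34 centred and 0.42 at 10 CPM, and the count of higher members, 21, was 13 both as a mean over cells and centred.

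For the FAK inhibitor graft at day 90 over unwounded skin (0.0066) it was 0.016 with all barcodes, 0.030 with the stricter filter, -0.019 without mitochondrial and ribosomal genes in the total, 0.062 as a mean over cells, 0.098 thinned, 0.044 without shared barcodes and 0.022 centred. For the untreated graft at day 90 over unwounded skin (0.10) it was 0.11, 0.12, 0.028, 0.12, 0.16, 0.14 and 0.17 under the same settings in the same order.

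For day 90 over day 7 in FAK inhibitor grafts (-0.61) it was -0.59 with all barcodes, -0.64 with the stricter filter, -0.41 as a mean over cells, -0.49 thinned, -0.62 without shared barcodes, -0.58 without cycling clusters, -0.47 centred and -0.60 at 10 CPM, and 18 members were lower as a mean over cells, where 33 were. In untreated grafts (-0.38) it was -0.37 with all barcodes, -0.40 with the stricter filter, -0.37 with doublets kept, -0.46 without mitochondrial and ribosomal genes in the total, -0.27 as a mean over cells, -0.28 thinned, -0.39 without shared barcodes, -0.22 centred and -0.36 at 10 CPM, and 5 members were lower when centred, where 13 were.

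In mural-like cells the log2 ratio of NDUFA4L2 over unwounded skin was 0.52 as a mean over cells, 0.52 thinned and 0.25 with shared clusters weighed the same for the FAK inhibitor graft at day 90 (0.68), and 0.50, 0.52 and 0.12 for the untreated graft at day 90 (0.69). That of COX4I2 at day 90 over day 7 in FAK inhibitor grafts (0.59) was 0.58 with all barcodes, 0.50 as a mean over cells, 0.52 without cycling clusters and 0.54 with shared clusters weighed the same, and for the untreated graft at day 90 over unwounded skin (0.56) it was 0.63 with all barcodes. Under separate clustering of the libraries, the endothelial-like ratios turned to -1.45 for NDUFA4L2 and -1.38 for COX4I2 (FAK inhibitor graft at day 90 over unwounded skin) and to -4.70 and -4.36 (over day 7), and the fibroblast-like median between treatments at day 90 turned to 0.016. The cause was not tested.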
